A study of Mus musculus with 9 samples.

Results

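Ion channels and neurotransmitter receptors carry the electrical signals of neurons and muscle, and some of their genes are among the longest in the mouse genome. The 186 genes described here were chosen by name, from the 21951 protein-coding genes of the GENCODE M21 annotation (mm10). They comprise voltage-gated calcium channels and their auxiliary subunits (names starting with Cacna, Cacnb or Cacng), potassium channels and their partners (Kcn), sodium channels (Scn), the AMPA, kainate, NMDA and delta glutamate receptors (Gria, Grik, Grin, Grid), metabotropic glutamate receptors (Grm), GABA-A receptors (Gabr) and the calcium release channels of intracellular stores (Ryr, Itpr). The name rule also takes in a few partner proteins that are no channels, such as Kcnrg. What was counted in each gene is the number of SAFB peaks on its own strand, called sense peaks.

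SAFB1 is a nuclear protein that binds both RNA and chromatin, and it has been described as preferring purine-rich RNA. RNA that came down with it was sequenced (RIP-seq) from male mouse embryonic stem cells, strain label CAST/B6 Male Rosa26-RMCE, which had all received doxycycline for 3 days. The 9 libraries comprise SAFB1 pulldowns of wild-type cells (3: parental cells, then 1 library for each of 2 derived clones), IgG pulldowns of wild-type cells (2), SAFB1 pulldowns of 2 safb1/2 double-knockout clones (2), and FLAG pulldowns of 1 of those knockout clones with either an eGFP plasmid (1) or a full-length SAFB1 plasmid (1). For this last library the genotype field says wild type while the title gives the knockout clone, and the title was followed. The data analysed are a single list of stranded peak positions for the whole series, without values per library. Antibodies and genotypes could therefore not be compared, the read depth under the peaks is not known, and no value has replicates.

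Channels are built from pore-forming subunits, which span the membrane and select the ion, and auxiliary subunits, which set gating and traffic to the surface. Ionotropic receptors are channels opened by a transmitter, and metabotropic receptors signal through G proteins. Most of these genes are known for their work in differentiated excitable cells rather than in stem cells. RNA levels were not measured in the list, so which of the genes were transcribed in these cells is not known from it.

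Of the 186 genes, 57 held at least 1 sense peak (30.65%, 95% Wilson interval 24.5 to 37.6), and 129 held none. Over all protein-coding genes the share was 26.2%. The channel and receptor genes are longer than most, with a median of 59.8 kb against 17.3 kb for the other 21765 protein-coding genes, and longer genes hold peaks more often. If each gene had held a peak as often as the other protein-coding genes in its length bin, 80.6 of the 186 would have had one. Together they held 322 peaks over 30.8 Mb, a density of 10.5 per Mb, while other genes had 18.6. They make up 2.865% of the length of all protein-coding genes and held 1.64% of the 19691 pairs of peak and gene. These are descriptions of a single list, in which fewer bound molecules and less RNA of a gene cannot be told apart. Intervals cover counting error only, and genes are not replicates.

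The difference from other genes was widest at 100 to 300 kb. In that bin 11 of 34 channel and receptor genes held a peak (32.4%, interval 19.1 to 49.2), against 68.1% of all protein-coding genes and 68.75% of the 1891 other genes (66.6 to 70.8), and these intervals did not overlap. Above 300 kb it was 23 of 39 (59.0%, 43.4 to 72.9) against 68.6% of all and 69.3% of the 528 others (65.3 to 73.1), with overlapping intervals. From 30 to 100 kb it was 14 of 46 (30.4%) against 42.4% of all, from 10 to 30 kb 6 of 43 (13.95%) against 21.3%, and below 10 kb 3 of 24 (12.5%) against 6.05%. In these 3 bins the interval of the channel genes included the share in the other genes. The number of peaks was lower as well: above 300 kb the median was 1 peak per gene against 4 in other genes, and from 100 to 300 kb it was 0 against 2.

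**Figure D1:**
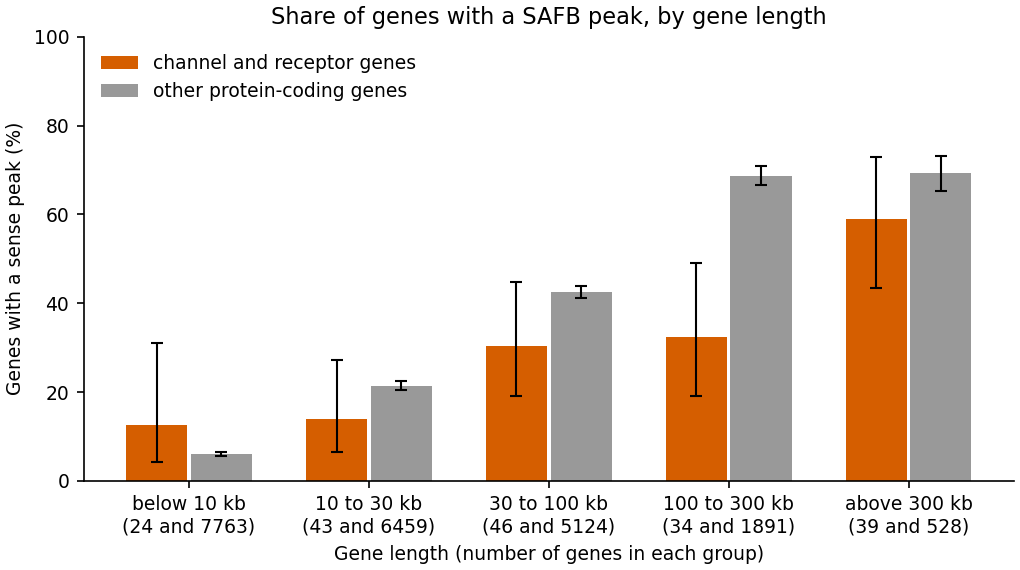
Bars give the share of genes with at least 1 sense SAFB peak, in %, by gene length, for channel and receptor genes and for all other protein-coding genes; error bars are 95% Wilson intervals and the numbers under each bin are genes in the 2 groups. The channel and receptor genes stand at 32.4% against 68.75% from 100 to 300 kb, and their intervals overlap those of the other genes above 300 kb.

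Peaks were concentrated in few of the genes. The 3 genes with most peaks held 90 of the 322 (28.0%), the first 10 held 199 (61.8%), and 12 genes with at least 10 peaks held 221 (68.6%). At least 10 peaks were found in 6.45% of the channel and receptor genes, against 1.8% of all protein-coding genes, and at least 5 in 17 genes (9.14%) against 4.52%. Exactly 1 peak was found in 21 genes. Against genes of their own length, rich genes were not more frequent above 100 kb. Above 300 kb, 9 of 39 held at least 10 peaks (23.1%), against 33.0% of other genes. From 100 to 300 kb the shares were close, with 3 of 34 (8.82%) against 10.3%.

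**Figure D2:**
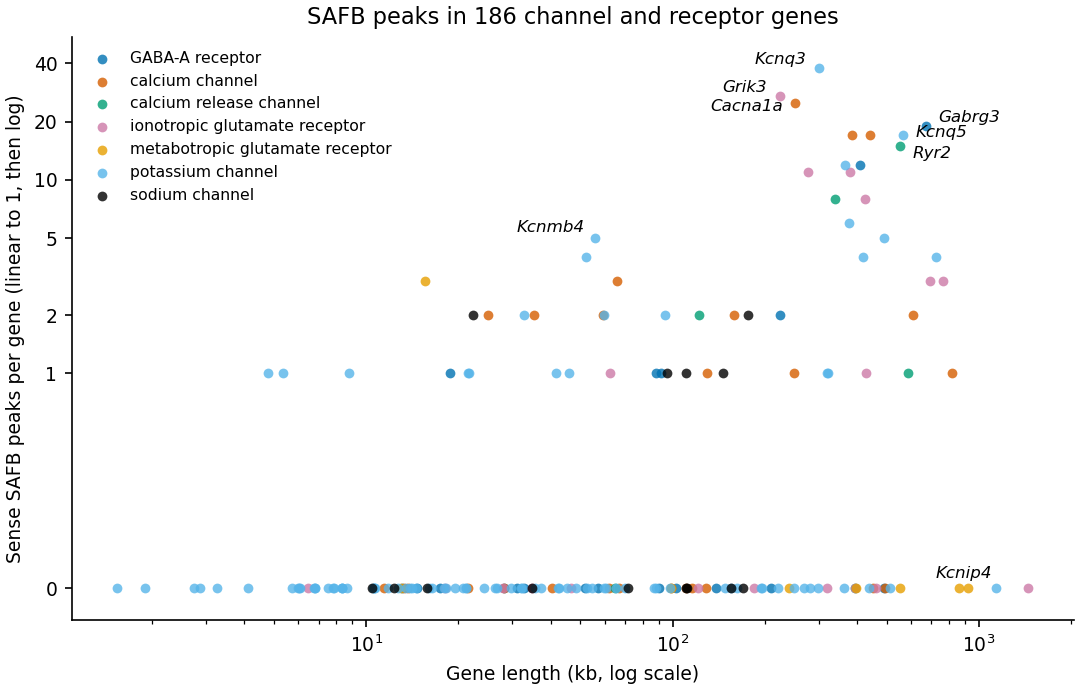
Each point is 1 of the 186 genes, with gene length in kb on a log axis and the number of sense SAFB peaks on an axis that is linear up to 1 and logarithmic above; colours mark the class. Long genes range from 0 peaks (Kcnip4) to 38 (Kcnq3).

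The Kcnq family held 58 of the 110 peaks in potassium channel genes. These voltage-gated channels carry the M-current, which limits repetitive firing in neurons, and a slow repolarising current in the heart. The 58 peaks lay over 1.30 Mb (44.7 per Mb), where the density of other genes of their lengths would give 21.5. Kcnq3 (ENSMUSG00000056258, chromosome 15, 65986387 to 66286642, minus strand, 300.256 kb) held 38 sense peaks, the most of all 186 genes, covering 9.73% of the gene. None of the 50 other protein-coding genes nearest to it in length held as many (median 3, highest 37). Kcnq5 (chromosome 1, 21398403 to 21961942, minus strand) held 17 and Kcnq1 1.

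Most peaks of Kcnq3 lay in its first intron, counted in the coding transcript. This intron spans 254.4 kb, or 84.7% of the gene, and held 34 of the 38 peaks, where an even spread by length would give 32.2. The median distance between neighbouring peaks was 4.27 kb. Within the intron they ended 203.4 kb from the gene start, and a stretch of 74.4 kb without a peak followed. Peak widths ranged from 74 to 2292 bases. In Kcnq5 all 17 peaks lay in the first intron (367.6 kb, 65.2% of the gene), between 52.3 and 240.2 kb from the start, and the last 323.3 kb of the gene held none. If each number in the authors' peak names stands for 1 call, 43.2% of the calls between the first and last Kcnq3 peak were kept in the final list and 33.3% in Kcnq5. The median over the 36 genes with at least 2 peaks was 28.6% (8.00 to 100%).

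The remaining potassium channel genes held few peaks for their length. The whole class had 21 of 94 genes with a peak, where length would give 32.6, and 110 peaks, where the density of other genes would give 186.9. The classical kinds of voltage-gated pore subunit outside the Kcnq family (Kcna to Kcnd, Kcnf, Kcng, Kcns and Kcnv) had 4 of 27 with a peak. They held 5 peaks in all (7.565 genes and 34.1 peaks from length). Kcnf1, Kcng1 and Kcng3, whose subunits are silent on their own and modify Kcnb channels, held 1 each. Kcnd2, a fast transient channel of dendrites with a gene of 514.303 kb, and Kcnb2 (436.497 kb) held none. In the ether-a-go-go family Kcnh8 held 6, Kcnh7 5 and Kcnh1 1, with 3 of 8 genes positive (3.83 genes and 27.75 peaks from length). The genes named Kcnma, Kcnn, Kcnt and Kcnu mostly encode calcium- or sodium-activated channels. Of these, 3 of 8 held a peak (4.045 genes and 31.6 peaks from length). Kcnt2, a sodium-activated channel, held 12 peaks. Kcnma1, the large-conductance calcium-activated channel, and Kcnn2, a small-conductance one, held 4 each. Inward rectifiers had 3 of 15 with a peak (4.23 genes and 14.7 peaks from length), with 2 in Kcnj10 and 1 each in Kcnj4 and Kcnj9. Leak channels with a pair of pores per subunit had 2 of 14 (4.75 genes and 14.1 peaks from length), with 4 in Kcnk12 and 1 in Kcnk5.

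Among auxiliary potassium channel subunits, 3 families were without sense peaks. No peak lay in the 5 Kcne genes (Kcne1, Kcne1l, Kcne2, Kcne3 and Kcne4), the 4 Kcnip genes (Kcnip1, Kcnip2, Kcnip3 and Kcnip4), whose calcium-binding proteins accompany Kcnd channels, or the 3 Kcnab genes (Kcnab1, Kcnab2 and Kcnab3), which encode cytoplasmic beta subunits. The Kcne genes are short, and length would give 0.507 peaks. In the Kcnip genes it would give 26.3 peaks, since Kcnip4 alone spans 1135.406 kb. Of the subunits of the large-conductance channel, Kcnmb4 (56.018 kb), the neuronal form, held 5 peaks within the first 20.4 kb of the gene, a count reached by 2 of the 50 other genes nearest in length. No sense peak lay in Kcnmb1, Kcnmb2 or Kcnmb3. Kcnrg, which encodes a regulator of potassium channel assembly, held 1.

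Of the 26 calcium channel genes 12 held a peak, where length would give 13.2, with 75 peaks against 88.6. The pore-forming Cacna1 genes had 5 of 10 (5.63 from length). Cacna1a, which encodes the P/Q-type channel of synaptic terminals (chromosome 8, 84388440 to 84640246, plus strand, 251.807 kb), held 25 sense peaks covering 10.6% of the gene, a number that 1 of the 50 other genes nearest in length also reached. Cacna1g held 3 and Cacna1h 2, both T-type channels of low threshold. Cacna1b, the N-type channel, and Cacna1c, the main L-type channel of heart and brain, held 2 each. Cacna1d (451.517 kb) and Cacna1e (493.771 kb) held none. In the alpha-2-delta subunits, which bring channels to the surface, Cacna2d1 (439.821 kb) held 17, Cacna2d2 and Cacna2d3 1 each and Cacna2d4 none, although Cacna2d3 with 816.922 kb is the longest. In the cytoplasmic beta subunits Cacnb2 held 17, 15 of them in an intron of 209.7 kb, Cacnb4 held 1, and Cacnb1 and Cacnb3 none. Among the Cacng genes, which include the auxiliary subunits of AMPA receptors, only the neighbours Cacng7 and Cacng8 held sense peaks, 2 each.

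The peaks of Cacna1a lay mostly late in the gene, with 5 of 25 before its middle. They were spread over many of its 46 introns, and the intron with most held 4. Its peaks had a median width of 822 bases and lay a median of 1.64 kb from the nearest exon. It also held 10 antisense peaks, on the opposite strand, of which 2 lay in the non-coding gene Gm16183 and 8 in no annotated gene. Its calls lay close together, at 441.1 per Mb between the flanking kept peaks, and 22.3% of those between its first and last peak were kept.

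Glutamate receptor families held both members with many peaks and long members with none. The kainate receptors had 4 of 5 genes with a peak and 39 peaks (3.19 genes and 31.3 peaks from length). Grik3 (chromosome 4, 125490700 to 125714173, plus strand, 223.474 kb) held 27, the second most of all 186 genes, with 17 in its first intron of 132.5 kb, and 1 of the 50 other genes nearest in length held as many. Grik4 held 8, Grik2 3 and Grik5 1, and Grik1 (394.366 kb) none. Of the AMPA receptors Gria3, on the X chromosome, and Gria4 held 11 each, and Gria1 (318.858 kb) and Gria2 none. The delta receptors, synapse organisers of the cerebellum and other regions, held 3 peaks, all in Grid1, where length would give 37.2. NMDA receptors held 1 peak in 7 genes, in Grin2a, where length would give 20.6, and Grin2b (460.279 kb) held none.

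Metabotropic glutamate receptor genes are long and held few peaks. Over 3.10 Mb the 8 Grm genes held 3 peaks, where the density of other genes would give 52.9, and all 3 lay in Grm6, the receptor of retinal bipolar cells. Grm7 (921.650 kb), Grm8 (860.060 kb) and Grm5 (550.740 kb) held none. Grm6 is short, with 15.524 kb, and with 0.193 peaks per kb it had the highest density of the genes with at least 3 peaks. It was followed by Kcnq3 (0.127), Grik3 (0.121), Cacna1a (0.0993), Kcnmb4 (0.0893), Kcnk12 (0.0766), Cacna1g (0.0456), Cacnb2 (0.0442), Gria3 (0.0396) and Cacna2d1 (0.0387).

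GABA-A receptors, the main inhibitory channels of the brain, held 36 peaks in 6 of 19 genes (8.87 genes and 50.7 peaks from length). They lie in groups of genes along the chromosomes, and the groups differed. On chromosome 7 Gabrg3 (670.724 kb) held 19 peaks and its neighbour Gabra5 none. On chromosome 5 Gabrg1 and Gabra4 held 1 each, and Gabra2 and Gabrb1 (490.925 kb) none. On chromosome 11 Gabra6 and Gabrb2 held no sense peak. On the X chromosome Gabra3 held 2, Gabre 1 and Gabrq none. In Gabrg3, 17 of the 19 peaks lay in the third intron (143.9 kb), a single peak followed 308.3 kb further on, and 11 of the 50 nearest genes in length held as many.

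Calcium release channels, which empty the stores of the endoplasmic and sarcoplasmic reticulum, had 4 of 6 genes with a peak (3.885 from length). The class held 26 peaks, where the density of other genes would give 34.9. All 3 ryanodine receptor genes held a peak (2.07 from length), with 18 peaks against 21.7 from length. Ryr2, the cardiac form (553.844 kb), held 15, of which 2 also lay in Gm47493, Ryr1, the skeletal muscle form, held 2, and Ryr3 (585.742 kb) 1. Of the inositol trisphosphate receptors, Itpr1 (338.014 kb) held 8 and Itpr2 (393.925 kb) and Itpr3 none. In Itpr1 7 of the 8 lay after the middle of the gene. If numbers in the peak names are calls, Ryr2 and Itpr1 had the lowest shares kept among the genes with at least 5 peaks, 8.47% and 8.00%.

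Sodium channel genes held 7 peaks in 5 of 14 genes, where length would give 27.2 peaks in 6.94 genes. Scn8a held 2, and Scn2a and Scn3a 1 each. The pore-forming genes together had 5 peaks, where length would give 26.1. In the group of 5 such genes on chromosome 2 that holds both of these, Scn1a, Scn9a and Scn7a held none. Of the auxiliary subunits Scn3b held 2, within 1 intron of a gene of 22.402 kb, a count reached by 1 of the 50 nearest genes in length, and Scn2b and Scn4b held none.

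Of the 25 families, 6 held more peaks than the density of other genes of the same length would give and 19 held fewer. The 6 were Kcnq (58 against 21.5), Grik (39 against 31.3), Cacnb (18 against 12.7), Gria (22 against 20.8), Scnb (2 against 1.04) and Kcnrg on its own (1 against 0.078). In Cacnb, 17 of the 18 lay in Cacnb2. The auxiliary and partner genes together had 10 of 38 with a peak (14.1 from length) and 9.69 peaks per Mb, and the pore-forming and receptor genes 47 of 148 (66.5) and 10.6 per Mb.

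**Figure D3:**
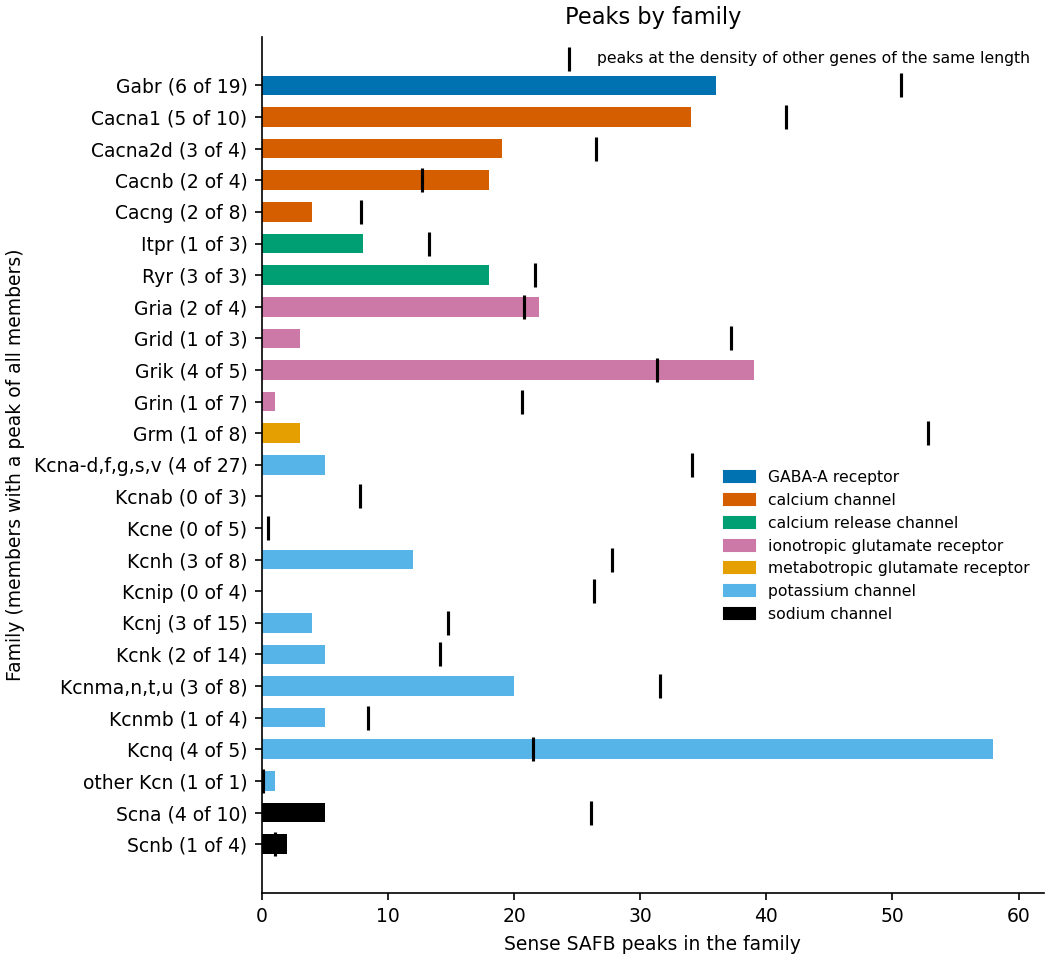
Bars give the number of sense SAFB peaks in each family, coloured by class, with the members that hold a peak and all members in the labels; black marks give the peaks the family would hold at the density of other protein-coding genes in the same length bins. Kcnq lies above its mark (58 against 21.5), and Grm (3 against 52.9), Grid and Grin lie far below theirs.

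Nearly all peaks were intronic. Introns held 302 of the 322 peaks, and exons of the gene 20 (6.21%, interval 4.06 to 9.40), in 15 genes. An exonic peak was found in 9.72% of all protein-coding genes. In the other protein-coding genes 14.8% of sense peaks were exonic, but that share is lower in long genes. Weighted to the lengths of the genes that hold the channel and receptor peaks it was 7.89%, inside the interval. Intronic peaks lay a median of 15.4 kb from the nearest exon (quartiles 3.01 and 45.8), and 171 of them (56.6%) more than 10 kb away. In other genes the median was 5.43 kb, and 9.795 kb in those above 100 kb, of whose intronic peaks 49.6% lay more than 10 kb from an exon. These distances were not weighted to gene length, and 206 of the 322 channel and receptor peaks lay in genes above 300 kb. Whether gene length accounts for the difference was not tested. Only 36 intronic peaks (11.9%) lay within 1 kb of an exon. The median width of intronic peaks was 522.5 bases (quartiles 279.2 and 1009), against 621 in other genes above 100 kb.

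By midpoint, coding sequence held 8 of the 20 exonic peaks, in Cacna1g, Cacna1h, Cacng8, Gria3, Grik3, Grm6, Kcnt2 and Scn3a, 1 in each. The other 12 lay in exons outside coding sequence or in exons of non-coding transcripts: 3 in Kcnq3 and 1 each in Cacna1a, Cacna1g, Grik2, Grik3, Grm6, Itpr1, Kcnf1, Kcnj9 and Kcnq5. The widest were those of Itpr1 (1933 bases), Kcnj9 (1816), Kcnq3 (1659, at the gene start, in an exon of a retained-intron transcript) and Grik3 (1647). In Kcnf1, Kcnj9 and Scn3a all peaks of the gene, 1 in each, were exonic.

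The coding stretches under 4 of these peaks are shown to let purine content be read from the letters, for the preference described for SAFB. They were read from the GENCODE M21 transcripts and run 5′ to 3′ on the gene's strand, with the 6-letter motifs GAAGAA and AGAAGA in capitals where they occur, also where they overlap. The Cacng8 stretch (chr7:3394225-3394463, plus strand) holds both motifs, Kcnt2 (chr1:140512871-140512983, plus strand) holds 1, and Gria3 (chrX:41588489-41588617, plus strand) and Grik3 (chr4:125632296-125632483, plus strand) hold none.
Cacng8: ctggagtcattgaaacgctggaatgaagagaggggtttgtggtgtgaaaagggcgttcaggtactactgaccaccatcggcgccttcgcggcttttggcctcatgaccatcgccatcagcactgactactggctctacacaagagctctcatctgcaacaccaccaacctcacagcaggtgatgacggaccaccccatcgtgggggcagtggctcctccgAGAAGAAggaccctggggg
Kcnt2: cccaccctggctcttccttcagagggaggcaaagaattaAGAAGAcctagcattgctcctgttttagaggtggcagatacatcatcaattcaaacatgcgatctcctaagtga
Gria3: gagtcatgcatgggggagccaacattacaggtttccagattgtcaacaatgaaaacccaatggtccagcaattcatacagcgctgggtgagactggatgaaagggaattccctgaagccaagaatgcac
Grik3: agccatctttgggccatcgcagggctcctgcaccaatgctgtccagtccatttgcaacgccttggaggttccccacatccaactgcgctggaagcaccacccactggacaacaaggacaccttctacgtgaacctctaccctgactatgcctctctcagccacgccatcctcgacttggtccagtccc

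Of the bases shown, A and G made up 52.3% in Cacng8, 50.4% in Kcnt2, 58.9% in Gria3 and 40.4% in Grik3, so the stretches range from rich to poor in purines. Over the 20 exonic peaks, the 11407 transcript bases under peaks were 53.0% purine, against 49.4% of the 72136 bases elsewhere in those 17 transcripts, or 3.58 percentage points more. The peak was richer than the rest of its transcript in 14 of 20 cases, and in 5 of the 8 coding ones. The motifs, on this strand only, occurred 25 times under peaks (2.19 per kb) and 113 times in the rest (1.57 per kb), and 11 of the 20 peaks held at least 1. Only the coding peaks together came to 49.7% purine. With so few peaks these values are given as a description, and no sequence was read for the 302 intronic peaks.

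Along the genes, peaks lay more often before the middle than after it. Of the 322 peaks 198 (61.5%) lay before the middle of their gene, against 46.9% of the 19369 in other genes. With each gene counted once, the 17 channel and receptor genes with at least 5 peaks had a mean of 64.5% before the middle (SD 29.0 over genes), and 13 of the 17 had more before than after it. In the 431 other genes above 200 kb with at least 5 peaks the mean was 47.45%, and 41.3% of them had more before the middle. Without Kcnq3, Grik3 and Cacna1a the share was 64.7% of 232 peaks. The spread between genes was wide: Kcnq5, Kcnh7 and Kcnmb4 had all their peaks before the middle and Gabrg3 18 of 19, while Itpr1 had 1 of 8, Cacna1a 5 of 25 and Gria3 4 of 11.

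**Figure D4:**
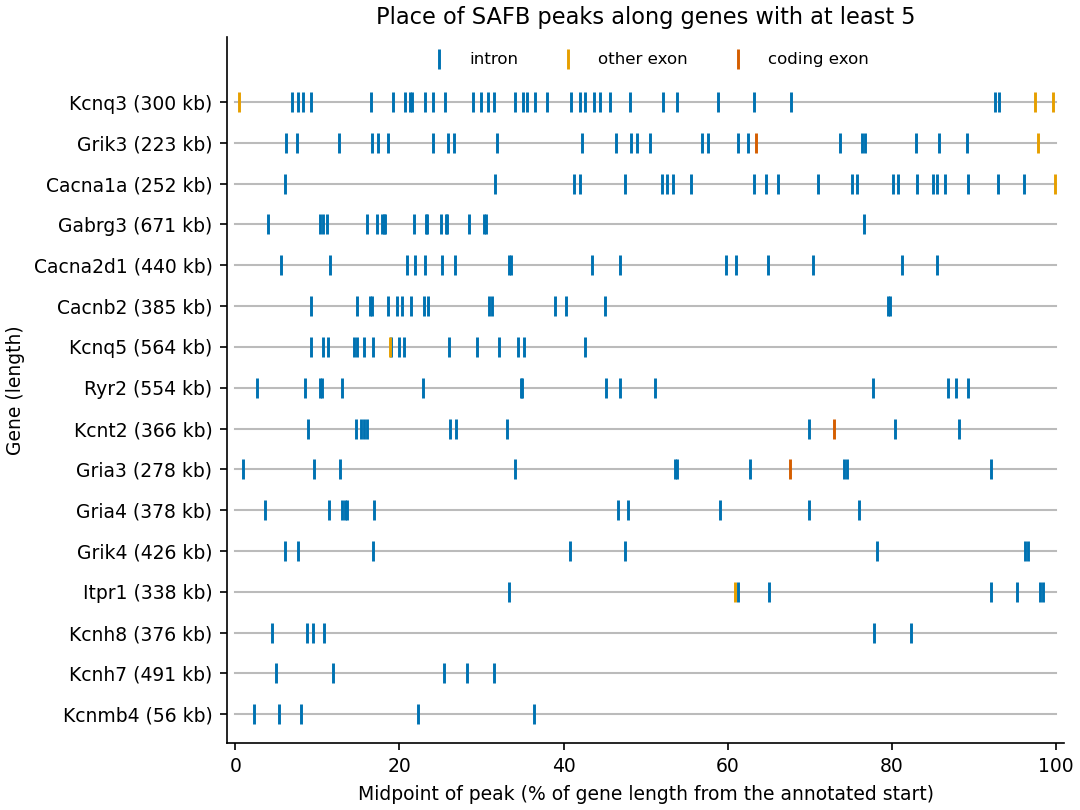
Each row is 1 gene with at least 5 sense peaks, among those named in the text, drawn from the annotated start to the end in % of gene length, and each tick is the midpoint of 1 SAFB peak, coloured by place. Kcnq5 has no peak in the later part of the gene, and Grik3 has peaks along its whole length.

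Long introns carried many of these peaks. In the 17 genes, 134 of 253 peaks lay in the longest intron of the gene (53.0%), where an even spread by length would give 114.5, and 12 of the 17 had more there than by length. Without Kcnq3 it was 100 of 215, against 82.3. First introns held 95 peaks, against 85.7 by length, with 8 of 17 genes above it. These introns are gaps between the merged exons of all coding transcripts, so the first can be very short where transcripts start apart. In Gria3, Gria4 and Itpr1 it spans 0.046, 0.325 and 0.849 kb, without a peak. Peaks in Kcnh7 all lay in its second intron (304.7 kb), and those of Kcnmb4 all in its first (26.7 kb).

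Most peaks within the genes were on the strand of the gene. At positions with genes annotated on 1 strand only, 311 of 347 peaks within these genes were sense (89.6%, interval 86.0 to 92.4), against 83.0% in other protein-coding genes (82.5 to 83.5). Antisense peaks were found in 23 of the genes (12.4%), against 12.5% of all protein-coding genes, and 12 of these had no sense peak. The largest number lay in Kcnq1, whose single sense peak was 167.6 kb from its start: 20 antisense peaks, of which 19 belonged to Kcnq1ot1, the imprinted non-coding RNA that is transcribed from within Kcnq1 against its direction. The antisense peaks of Kcnk13 (3), Cacng2 (3) and Grin3a (2) lay in no annotated gene. Of Kcnab1's 4, 1 lay in A730090N16Rik. Of the sense peaks, 6 in 4 genes fell within a further gene transcribed in that direction, among them 2 each in Cacnb2 and Ryr2 and 1 in Grik3, in the pseudogene Ftl2-ps.

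Above 100 kb, of the 73 channel and receptor genes, 34 held a peak (46.6%, interval 35.6 to 57.9), against 68.9% of 2419 other genes (67.0 to 70.7). The numbers in the peak names rise along each strand of each chromosome, and if each stands for 1 call, the numbers between the nearest kept peaks on either side of a gene bound the calls in it. For the 39 without a peak this gave a median of 19.45 calls per Mb (quartiles 9.92 and 32.7), and for the 34 with one 50.8 (26.3 and 99.1). Genes that lie between the same kept peaks share 1 value and were each counted, as were Scn1a, Scn7a and Scn9a at 19.45. In other genes of that size the medians were 22.9 without and 120.3 with a peak. The longest genes without a peak included Kcnip4, Grm7, Grm8, Grm5, Kcnd2, Cacna1e, Gabrb1, Grin2b and Cacna1d, with values from 6.58 calls per Mb in Kcnip4 to 58.0 in Cacna1d. The bound includes the flanking stretches outside the gene, and a gene with kept peaks lies by construction where calls exist. What a call is, and how many reads stand behind one, is not given in the sources used here.

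Of 70 ion channel genes outside the name rule (chloride, TRP, cyclic-nucleotide-gated, purine-gated and others) 24 held a peak, where length would give 28.9, with 87 peaks (142.5 from length), led by Ano3 (13), Ano6 (11), Nalcn and Piezo2 (10 each). Of 56 other transmitter receptor genes (acetylcholine, glycine, serotonin, dopamine and adrenergic receptors and Gabbr1 and Gabbr2) 6 held a peak (16.6 from length), with 11 peaks, 6 of them in Chrna7. Of 43 scaffolds and partners of channels and receptors 23 held a peak (23.2 from length), with 533 peaks, where length would give 211.6. Most of these lay in Grip1 (167) and Dpp6 (158), followed by Ank2 (54), Shisa6 (52) and Gphn (28). The median of the list was 1 peak per gene, and the long genes Fgf14 (699.2 kb) and Fgf12 (593 kb) held none. Of the marker lists, 5 of 15 stem cell markers held a peak, namely Esrrb, Tet2, Tet1, Tfcp2l1 and Zfp42 (3.50 from length), 6 of 15 neuron markers (6.07) and 1 of 12 striated muscle markers (2.12). A peak is no measure of a gene's RNA level, so the labelled cell type could not be checked from these counts.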

How the data were processed

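RNA recovered by RIP was sequenced in 9 libraries. The authors deposited 1 peak list without header, in which the score column is 500 in every line and was not used. The submitters' processing notes name mm10, STAR, Subread and featureCounts; neither these notes nor the labels name a peak caller or say whether libraries were pooled. Starts were taken as counted from 0. Genes and exons came from GENCODE M21 (GRCm38, the assembly of mm10). A peak counted for every same-strand gene covering its midpoint, with exons of all transcripts. Numbered and longest introns were the gaps between the merged exons of a gene's coding transcripts. Genes were compared with other protein-coding genes in 5 length bins (edges 10, 30, 100 and 300 kb), which gives the numbers "from length". No expression values were used. The members and lists were chosen with earlier results of these data known, so no test of the set was made and intervals are 95% Wilson intervals. Named genes are the 25 with most peaks and ties, those with exonic peaks, the 10 densest, the 10 longest without a peak and all members of families of at most 5; others were named after their values were seen. Some genes and sequences under these rules are not reported here, and counts over families include them. The planned comparisons of libraries need values that the list lacks. The code that assigns peaks to genes was checked on simulated peaks, which is no test of the results. Python 3.11.15, numpy 2.4.6 and pandas 2.3.3 were used.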

Additional observations from a re-analysis of the deposited data

How the results depend on the processing

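Counting peaks with any overlap, only peaks wholly inside the gene, or only peaks in a single sense gene left 57 genes with a peak. Length would give 81.1, 80 and 76.95 under these settings, in that order. With at least 2 peaks required 36 counted, where length would give 56.0. Leaving out peaks narrower than the list median of 596 bases, 42 genes and 146 peaks remained, with a median width of 1050 bases. Length would then give 65.1 genes, and 20.0% of all protein-coding genes held a peak. The number expected from length was 82.6 with 20 bins, 82.5 with the 50 genes nearest in length and 81.4 without predicted genes. Any base of a peak in an exon gave 10.6% exonic, against 21.6% in other genes, not weighted to gene length. Over all midpoints 83.4% of peaks were sense. Over the 36 genes with at least 2 peaks, the median was 316.3 calls per Mb between the first and last peak of a gene. Between flanking peaks, which span more than the gene, it was 94.9 for these genes. A stretch from first to last peak starts and ends at a kept call by construction and can be short. Coding peaks alone, a setting chosen after seeing the data, were 49.7% purine. Without Kcnq3, also chosen after seeing the data, 284 peaks remained. No paired analysis was possible because the list holds no values per library, and for the same reason no library could be left out.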
